A study of Mus musculus with 12 samples.

Results

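The 10 genes described here, Postn, Cthrc1, Fap, Grem1, Lrrc15, Runx1, Adam12, Cdh11, Sfrp1 and Thy1, are markers of activated fibroblasts. They were taken by gene name, and all 10 are present among the 56980 genes of the expression table. RNA from lung was sequenced in 12 libraries that fall into 3 groups of 4, all from male C57BL/6 animals 6 to 8 weeks old. In the HBG group, lungs came from mice given bleomycin and, by mouth, 7 g/kg of Huashibaidu granules (a herbal medicine from China), whereas Model mice were given bleomycin and distilled water, and Control mice distilled water. Bleomycin (5 mg/kg) was instilled once into the trachea of the HBG and Model mice to induce pulmonary fibrosis. The labels differ on the granules: the series text has them begin 1 week before bleomycin and continue daily until day 28, when mice were killed, while the sample labels have them given from day 7 for 14 days. No label says that each library is a separate mouse or that one was pooled, so p-values measure the spread between libraries, which may be technical.

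Fibroblasts are the collagen-making cells of the lung interstitium. After injury, under transforming growth factor beta (TGF-beta) and mechanical tension, some of them switch to an activated state in which they secrete matrix, remodel it with surface proteases and pull on it. Bleomycin is the usual way to bring this state about in mouse lung, and single-cell studies mark it with genes such as Cthrc1, Postn and Lrrc15. Resting alveolar fibroblasts express little Cthrc1 and Lrrc15, whereas Postn was abundant in the Control lungs here, as given below. Several of the 10 genes have other sources too: Thy1 is a surface protein of mouse T cells, and Runx1 is used throughout blood cell formation and in epithelium.

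Between 17979863 and 20752001 reads were assigned to genes in HBG libraries, 19230806 to 22622406 in Model libraries and 18864759 to 27150787 in Control libraries. Lung epithelial markers were abundant and none of the 12 was at 0 in any library; their CPM (counts scaled to library size) summed to between 38406 and 94066. The 14 general fibroblast markers were likewise present in every library. Their CPM summed to 1956, 1841, 3078 and 1593 in HBG libraries, to 3733, 3069, 2558 and 2239 in Model libraries and to 1987, 2035, 2073 and 2099 in Control libraries, so all 4 Model sums lay above the Control range. Libraries stood apart in their content of other cells. Markers of T cells summed to 220 CPM in HBG 3 and 216 CPM in Model 2, against 22.2 to 88.4 CPM in the other 10 libraries. Cardiac muscle markers ranged from 337 to 5618 CPM, and macrophage markers reached 4525 CPM in Model 1. Several results below share their highest or lowest libraries with such a sum, which is then given beside them. In bulk tissue, fewer cells of a type and less RNA per cell cannot be told apart.

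Expressed per transcript length, in TPM (counts divided by transcript length and scaled to the same total in every library), the 10 genes spanned a wide range of levels. Postn was far above the rest, at 262 ± 111 TPM in HBG, 279 ± 47.8 TPM in Model and 224 ± 22.6 TPM in Control lungs (SD, n = 4 each, as for every mean in the text). Cdh11 followed at 28.9 ± 12.2, 33.9 ± 7.59 and 23.3 ± 2.94 TPM in HBG, Model and Control lungs, then Runx1 at 23.7 ± 4.07, 26.5 ± 1.342 and 22.7 ± 3.98 TPM, and in each group the libraries of this pair overlapped. Thy1 had 23.1 ± 13.0 TPM in HBG, 20.2 ± 14.1 TPM in Model and 12.3 ± 3.89 TPM in Control lungs, and Sfrp1 12.3 ± 7.05, 21.8 ± 15.1 and 6.74 ± 1.91 TPM. These 2 genes were not separable in HBG or Model lungs, where their ranges overlapped widely, and overlapped narrowly in Control lungs. Cthrc1, at 5.95 ± 0.781, 8.25 ± 5.18 and 5.87 ± 1.12 TPM, and Grem1, at 1.78 ± 1.43, 3.36 ± 1.53 and 2.35 ± 0.837 TPM, came next, and their libraries overlapped in Model lungs only. Fap and Adam12 were near 1 TPM in HBG and Model lungs (0.987 ± 0.367 and 0.992 ± 0.166 TPM for Fap, 1.14 ± 0.907 and 1.21 ± 0.349 TPM for Adam12) and overlapped there, while in Control lungs Fap had 1.06 ± 0.143 TPM and Adam12 0.519 ± 0.103 TPM without overlap. Lrrc15 was lowest, at 0.0840 ± 0.0718, 0.197 ± 0.150 and 0.0499 ± 0.0464 TPM.

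**Figure D1:**
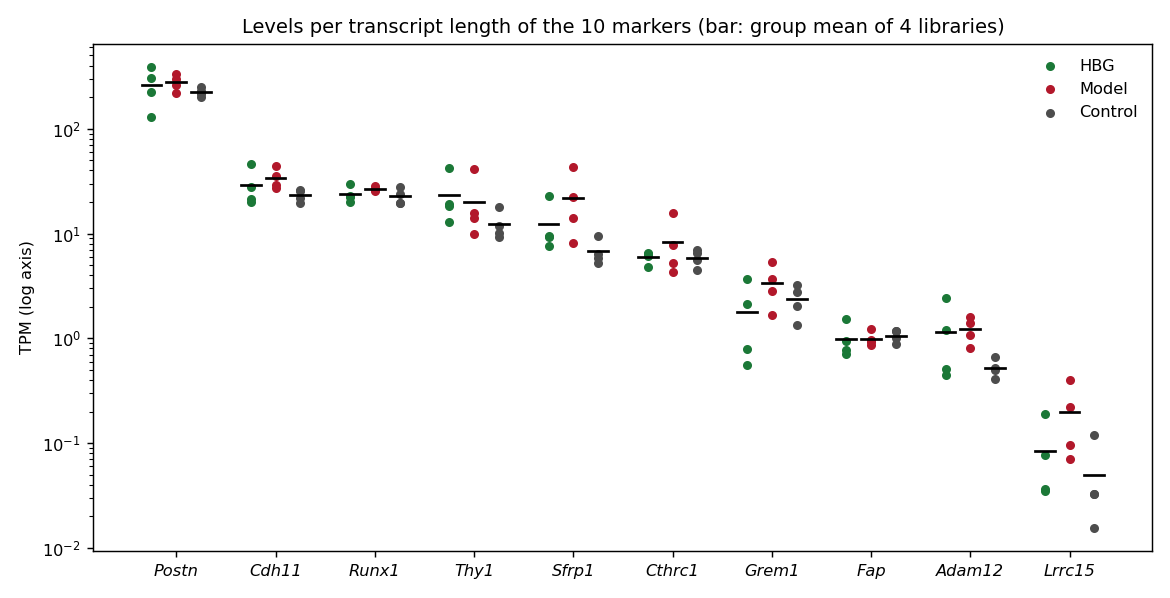
Level of each of the 10 genes in TPM on a log axis, 1 point per library, with HBG, Model and Control libraries from left to right in each gene and a bar at the group mean of 4 libraries. Postn stands at 224 to 279 TPM in all 3 groups and Lrrc15 at under 0.2 TPM in each group mean.

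The windows before the start sites of these extremes are shown because they mark the genes with the highest and lowest level. They are RefSeq promoters of the mouse build GRCm38.p6, 250 bases each up to the start site, 5′ to 3′ on the gene's strand, with matches to the searched motifs in capitals. Postn lies at chr3:54360857-54361106 on the plus strand, and Lrrc15 at chr16:30283255-30283504 on the minus strand.
Postn: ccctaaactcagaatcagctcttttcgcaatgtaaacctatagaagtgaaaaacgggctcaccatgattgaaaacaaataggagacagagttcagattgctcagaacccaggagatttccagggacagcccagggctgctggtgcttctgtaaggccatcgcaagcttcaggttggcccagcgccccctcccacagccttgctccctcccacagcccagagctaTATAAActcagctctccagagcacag
Lrrc15: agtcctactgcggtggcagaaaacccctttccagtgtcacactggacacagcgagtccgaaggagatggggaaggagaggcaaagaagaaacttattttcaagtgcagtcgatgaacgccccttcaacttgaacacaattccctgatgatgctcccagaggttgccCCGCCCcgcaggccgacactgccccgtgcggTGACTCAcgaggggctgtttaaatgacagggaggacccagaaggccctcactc
In the Postn window the capitals are a TATA box (TATAAA) that starts at position -26 from the start site. In the Lrrc15 window they are an AP-1 motif (TGANTCA) at -53 and a GC box (GGGCGG, here on the other strand) at -84. Of 32851 mouse promoters cut the same way and read on both strands, 12.4% held TATAAA, 6.75% TGANTCA and 32.7% GGGCGG. RefSeq lists a second Postn start at chr3:54359017-54359266, whose window held none of the 5 motifs searched. The remaining motifs were the CCAAT box (CCAAT, 33.8% of promoters) and the RUNX motif (TGTGGT, 14%), and the searched letters did not overlap one another in any window shown. The tables held promoters for 4 of the 10 genes, with 6 entries, and TGTGGT occurred in none of the 6. A match or its absence describes these letters only.

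The comparison of Model with Control lungs asks what bleomycin did to the activated fibroblast genes. Among the 9 tested genes Sfrp1 and Adam12 had the largest fold changes, and Adam12 and Cdh11 separated the groups in every library. Postn, the most abundant, and Runx1 had fold changes of 1.11 and 1.05. For Postn 3 of 4 Model libraries lay above the Control range, and for Runx1 all 4 lay within it. None of the 10 passed the test over all genes. Of the 9 genes that passed the filter on low counts, edgeR's quasi-likelihood test with Benjamini-Hochberg adjustment called 0 at an adjusted p under 0.05, beside 0.348% of the 17827 genes tested. At an unadjusted p under 0.05 there were 2 of 9, Sfrp1 and Adam12, against 11.7% of all genes. With other tools the count was 1 in DESeq2 (Sfrp1) and 2 in limma-voom with sample quality weights (Sfrp1 and Adam12). Fold changes were above 1 for 8 of the 9 (51.5% of all genes), with a median of 1.30-fold against 1.01-fold over all genes tested. In 2 of the 10 genes the Model and Control libraries did not overlap, as in 8.71% of all genes tested; both were higher in Model, as were 4.2% of all genes.

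Setting HBG beside Model lungs addresses whether the granules altered the same genes, and here none of the 10 genes separated the groups and none passed the test. edgeR called 0 of the 9 tested members and 0 genes of the whole table (0%). None of the 9 reached an unadjusted p under 0.05, which 2.43% of all genes did, and 1.13% of all genes separated the groups. DESeq2 and limma-voom also called 0 members. Fold changes were below 1 for 8 of the 9 genes (49.9% of all genes), with a median of 0.866-fold against 1.0004-fold over all genes. This comparison shares the Model libraries with the first, so the values of the 2 are set side by side and not counted as separate evidence. For HBG against Control lungs, edgeR, DESeq2 and limma-voom called 0 members (edgeR called 0.151% of all genes), 0 had an unadjusted p under 0.05 in edgeR (8.25%), 0 separated the groups (6.33%), and 5 of 9 fold changes were above 1 (51%).

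**Figure D2:**
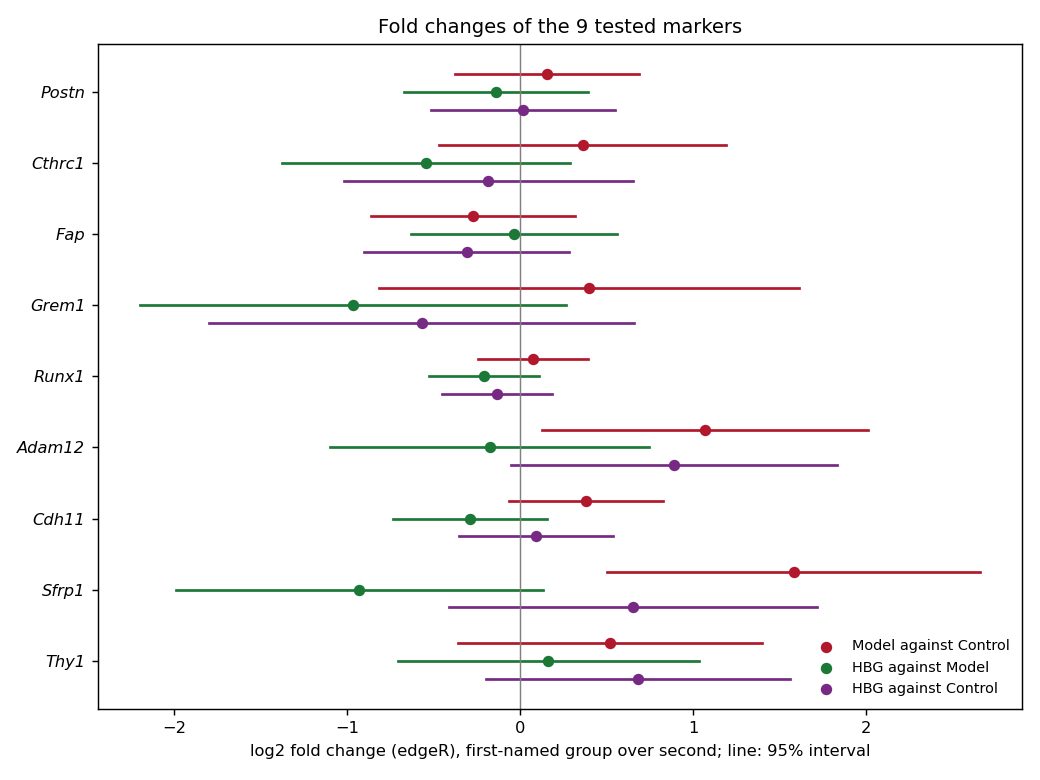
Log2 fold change of the 9 tested genes from edgeR (points) with 95% intervals (lines), for each of the 3 comparisons, the first-named group over the second. In Model against Control the intervals of Sfrp1 and Adam12 lie above 0, and every other interval in the plot includes 0.

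Postn and Cthrc1 encode secreted proteins of the matrix. Postn (ENSMUSG00000027750) encodes periostin, a matricellular protein that binds collagen and helps its cross-linking. It had 178, 435, 505 and 358 CPM in HBG libraries 1 to 4, 342, 436, 408 and 438 CPM in Model libraries, and 370, 327, 379 and 383 CPM in Control libraries. HBG held both the lowest library, HBG 1, and the highest, HBG 3, and the groups overlapped in each comparison. Against Control, 3 of 4 Model libraries lay above the Control range and 1 within it. Model averaged 406 ± 45.1 CPM and Control 364 ± 25.8 CPM, a fold change of 1.11 (95% interval 0.771 to 1.61, adjusted p = 0.847). HBG averaged 369 ± 141 CPM, 0.908-fold of Model (interval of the log2 fold change -0.67 to 0.39, adjusted p = 0.9999). Without HBG 1 the HBG mean was 433 CPM. The ends of the Postn range moved with markers of other cells. HBG 1 had the lowest sums of endothelial (1275 CPM) and alveolar fibroblast markers (1970 CPM), and HBG 3 the highest (4328 and 3966 CPM); their part in the Postn values was not tested.

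Cthrc1 (ENSMUSG00000054196) encodes collagen triple helix repeat containing 1, a secreted protein that marks the fibroblasts highest in collagen in fibrotic mouse and human lung. Its levels were 3.82, 2.97, 3.497 and 4.49 CPM in HBG libraries, 10.6, 3.03, 5.20 and 2.74 CPM in Model libraries, and 3.88, 3.15, 5.44 and 4.29 CPM in Control libraries. One library, Model 1, stood above all others, and 2 of the other 3 Model libraries lay below every Control library. The Model mean of 5.40 ± 3.65 CPM against 4.19 ± 0.957 CPM in Control gave a log2 fold change of 0.36 (SE 0.38, adjusted p = 0.754). Without Model 1 the Model mean was 3.66 CPM and the log2 fold change -0.20. HBG averaged 3.70 ± 0.635 CPM, a log2 difference of -0.54 from Model (interval -1.38 to 0.29) that became 0.01 without Model 1. All 4 HBG libraries lay within the Model range.

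Grem1 and Sfrp1 encode secreted antagonists of signalling ligands. Sfrp1 (ENSMUSG00000031548), secreted frizzled-related protein 1, binds Wnt ligands and keeps them from their receptors. It was measured at 51.2, 21.3, 20.2 and 19.7 CPM in HBG libraries, 108, 30.0, 56.8 and 19.4 CPM in Model libraries, and 15.3, 25.3, 15.4 and 15.7 CPM in Control libraries. Model 1, Model 3 and HBG 1 were the 3 highest of all, 3 of 4 Model libraries lay above the Control range, and Model 4 lay within it. The means were 53.6 ± 39.7 CPM in Model and 17.9 ± 4.93 CPM in Control, a fold change of 2.99 (95% interval 1.41 to 6.31; log2 1.58, SE 0.49), which did not pass in edgeR (adjusted p = 0.255). It did pass in DESeq2 (adjusted p = 0.0393) and in limma-voom with sample quality weights (adjusted p = 0.0199). Without Model 1 the log2 fold change was 0.98 (adjusted p = 0.544), and the smallest adjusted p with any 1 library left out was 0.104 (without Model 4). HBG averaged 28.1 ± 15.4 CPM, a log2 difference of -0.93 from Model (SE 0.49, interval -1.99 to 0.13, adjusted p = 0.9999) and of 0.65 from Control (interval -0.41 to 1.72, adjusted p = 0.739). The difference from Model was -0.33 without Model 1 and -1.39 without HBG 1, and that from Control 0.19 without HBG 1. All 4 HBG libraries lay within the Model range.

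The libraries highest in Sfrp1 were also the highest in macrophage markers, but the Control libraries did not follow the same order. The summed CPM of 12 monocyte and macrophage markers was 2525, 1311, 1644 and 961 in HBG libraries, 4525, 1966, 2731 and 1005 in Model libraries and 958, 897, 971 and 926 in Control libraries. Model 1, Model 3, HBG 1 and Model 2 were the 4 highest libraries in that order for both the sum and Sfrp1. The order depended on the measure. In the mean log2 CPM of the 12 markers relative to the mean library, HBG 1 (1.09) stood above Model 3 (1.06). Among Control libraries the highest Sfrp1 value was in Control 2, which had the lowest sum of all. None of the 12 markers was at 0 in any library. In Model against Control 12 of 12 had a fold change above 1 (median 2.79-fold), against 51.5% of all genes. Of the 12, 10 had an unadjusted p under 0.05 in edgeR, against 11.7% of all genes, and 0 passed the adjusted threshold. Spp1, a defining gene of scar-associated macrophages, had 688, 246, 106 and 120 CPM in HBG libraries, 1655, 255, 906 and 108 CPM in Model libraries, and in Control libraries 77.7, 43.9, 146 and 80.6 CPM. The sum also includes Fn1, which encodes the matrix protein fibronectin and is not particular to macrophages. Fn1 had 938 CPM in Model 1 and 155 to 205 CPM in Control libraries. The part of macrophages in the Sfrp1 result was not tested.

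The other members of the Wnt pathway did not lean one way. Of 29 tested genes out of a list of 30, 14 were higher and 15 lower in Model than in Control, 0 passed in either direction, and the median fold change was 0.995. Of the 29, 1 separated the groups upward and 1 downward, against 8.71% of all genes tested in either direction. Ror1, a receptor for Wnt5a, was the one upward, with 10.8 ± 1.01 CPM in Model and 8.27 ± 0.623 CPM in Control lungs (log2 0.39, adjusted p = 0.270). Notum, an enzyme that inactivates Wnt proteins by removing their lipid, had 6.17 ± 0.641 CPM in Model and 9.13 ± 1.72 CPM in Control lungs (log2 -0.56, adjusted p = 0.267). In HBG against Model lungs 15 were higher and 14 lower, 0 passed, and the median was 1.005-fold; Ror1 had 8.88 ± 0.935 CPM in HBG (log2 -0.28, adjusted p = 0.9999).

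Grem1 (ENSMUSG00000074934) encodes gremlin 1, which traps bone morphogenetic proteins (BMPs). It had 7.79, 1.73, 1.13 and 5.27 CPM in HBG libraries, 12.8, 3.38, 6.79 and 8.27 CPM in Model libraries, and 3.34, 8.21, 5.64 and 6.47 CPM in Control libraries. Model 1 was highest, HBG 3 and HBG 2 were the 2 lowest of all 12, and the groups overlapped. Model averaged 7.80 ± 3.88 CPM and Control 5.91 ± 2.02 CPM, a log2 difference of 0.40 (interval -0.81 to 1.61, adjusted p = 0.826) that was 0.06 without Model 1. At 3.98 ± 3.13 CPM in HBG, the log2 difference from Model was -0.97 (SE 0.56, interval -2.20 to 0.26, adjusted p = 0.9999), the largest in size among the 9 in this comparison; it ranged from -1.53 to -0.63 when each library was left out in turn.

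Among the 24 BMP genes tested, 10 were higher and 14 lower in Model than in Control lungs, 0 passed, and the median was 0.956-fold. Bambi, a decoy receptor that dampens TGF-beta and BMP signals, came closest to the threshold: it had 16.8 ± 2.5 CPM in Model and 31.1 ± 2.38 CPM in Control lungs without overlap (log2 -0.89, SE 0.17, adjusted p = 0.054). Fst encodes follistatin, an activin antagonist, and had 6.67 ± 4.29 CPM in Model and 2.17 ± 0.494 CPM in Control lungs, again without overlap (log2 1.61, adjusted p = 0.126). The highest Fst library was Model 1, at 12.8 CPM. Of the 24 genes, 1 separated the groups upward and 1 downward, against 8.71% of all genes tested in either direction. In HBG lungs Bambi averaged 21.3 ± 4.90 CPM and Fst 3.80 ± 0.358 CPM, each with an adjusted p of 0.9999 against Model. Over the list, 15 genes were higher and 9 lower in HBG than in Model, and 0 passed (median 1.03-fold).

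Runx1 (ENSMUSG00000022952) is the transcription factor of the set. It had 89.0, 69.2, 57.3 and 80.0 CPM in HBG libraries, 96.4, 76.2, 85.7 and 83.1 CPM in Model libraries, and 69.5, 99.2, 75.9 and 79.5 CPM in Control libraries. All 4 Model libraries lay within the Control range, and 2 HBG libraries lay below every Model library. The fold change was 1.05 in Model over Control (85.3 ± 8.40 against 81.0 ± 12.8 CPM; log2 interval -0.24 to 0.39, adjusted p = 0.883). In HBG, at 73.9 ± 13.7 CPM, the log2 difference from Model was -0.21 (interval -0.53 to 0.11). Its lowest library, HBG 3, was the library with most Ptprc, the pan-leukocyte gene CD45 (305 CPM, against 49.6 to 293 CPM in the other 11). Model 2, at 293 CPM of Ptprc, had 76.2 CPM of Runx1. The part of leukocytes in the Runx1 values was not tested. The highest Runx1 library, Control 2, had a sum of immediate early and heat shock genes of 5976 CPM, against 1065 to 2628 CPM elsewhere. The part of that response was not tested. Of the 8 RUNX factors and cofactors tested, 7 were higher and 1 lower in Model than in Control and 0 passed (median 1.078-fold). Of all genes 51.5% were higher. Runx2, the factor of bone formation, had 9.38 ± 2.29 CPM in Model and 7.22 ± 1.73 CPM in Control lungs (adjusted p = 0.582). In HBG against Model lungs the list split 4 to 4, and 0 passed.

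Grem1 and Runx1 had the closest pattern of any pair among the 45 pairs of the 10 genes. Over the 12 libraries Pearson's r of their log2 CPM was 0.92 and Spearman's rho 0.91. It was 0.91 after the group means were taken out and 0.86 without the 2 libraries farthest from the median Grem1 level. HBG 3 and HBG 2 were lowest for both genes, and 3 libraries (Model 1, Control 2 and HBG 1) were among the 4 highest for both. These are descriptions of 12 libraries that share differences in cell content. The sign was the opposite for Postn and Fap (r = -0.69, rho -0.62, -0.82 within groups, -0.54 without the 2 farthest libraries). The start-site windows of Grem1 and Runx1 are shown because these genes varied together. Grem1 is at chr2:113758649-113758898, the distal Runx1 start at chr16:92826075-92826324 and the proximal one at chr16:92697330-92697579, all on the minus strand and from the same table.
Grem1: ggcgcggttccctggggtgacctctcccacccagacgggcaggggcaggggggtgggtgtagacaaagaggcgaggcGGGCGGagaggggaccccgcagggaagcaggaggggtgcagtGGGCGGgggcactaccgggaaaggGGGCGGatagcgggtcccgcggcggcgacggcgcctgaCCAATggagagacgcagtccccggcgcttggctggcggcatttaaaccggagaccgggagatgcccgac
Runx1 distal: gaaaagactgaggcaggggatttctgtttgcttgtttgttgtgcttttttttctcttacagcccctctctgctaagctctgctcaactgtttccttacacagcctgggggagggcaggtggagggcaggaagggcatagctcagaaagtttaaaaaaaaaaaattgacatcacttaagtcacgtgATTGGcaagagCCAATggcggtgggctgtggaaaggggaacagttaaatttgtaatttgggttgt
Runx1 proximal: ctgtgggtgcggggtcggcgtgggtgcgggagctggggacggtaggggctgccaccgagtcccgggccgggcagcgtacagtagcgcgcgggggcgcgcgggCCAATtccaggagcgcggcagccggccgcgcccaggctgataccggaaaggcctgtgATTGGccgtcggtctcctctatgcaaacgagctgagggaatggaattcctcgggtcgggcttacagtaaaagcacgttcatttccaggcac
The capitals mark a CCAAT box in every one of the 3 windows: at -69 in Grem1, at -65 (other strand, ATTGG) and -54 in the distal Runx1 window, and at -148 and -91 (other strand) in the proximal one. Grem1 also held 3 GC boxes, at -173, -131 and -107. As given above, CCAAT and GGGCGG each occur in over 32% of mouse promoters. GC made up 72.0% of the Grem1 window, against 45.6% and 67.6% of the distal and proximal Runx1 windows.

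Adam12, Fap, Cdh11, Thy1 and Lrrc15 encode proteins of the cell surface. Adam12 (ENSMUSG00000054555), a metalloprotease and disintegrin, marks perivascular cells that give rise to scar-forming cells in mice. It had 4.76, 1.84, 8.98 and 2.33 CPM in HBG libraries, 6.19, 6.01, 4.75 and 3.35 CPM in Model libraries, and 1.89, 2.40, 2.53 and 2.86 CPM in Control libraries. Every Model library lay above every Control library, while HBG held the lowest library of all, HBG 2, and the highest, HBG 3, which also had the highest T cell sum (220 CPM), whose part was not tested. Model averaged 5.07 ± 1.32 CPM and Control 2.42 ± 0.405 CPM, a fold change of 2.09 (95% interval 1.09 to 4.02) and an adjusted p of 0.372 in edgeR. The adjusted p was 0.239 in DESeq2 and 0.0329 in limma-voom with sample quality weights. The log2 fold change stayed between 0.96 and 1.22 with each library left out in turn. In HBG lungs the mean was 4.48 ± 3.26 CPM, and 2.97 CPM without HBG 3. Against Model the log2 difference was -0.18 (interval -1.10 to 0.75) and -0.76 without HBG 3; against Control it was 0.89 (adjusted p = 0.616) and 0.30 without HBG 3.

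Fap (ENSMUSG00000000392) encodes fibroblast activation protein, a serine protease of the prolyl oligopeptidase family. It was scarce, at 2.15, 1.14, 0.945 and 1.55 CPM in HBG libraries, 1.55, 1.67, 1.36 and 1.37 CPM in Model libraries, and 1.46, 1.95, 2.18 and 1.58 CPM in Control libraries. The groups overlapped, and Fap was the only one of the 9 tested genes with a lower mean in Model than in Control lungs. The means of 1.49 ± 0.148 CPM in Model and 1.79 ± 0.333 CPM in Control differed by -0.27 on the log2 scale (interval -0.86 to 0.32, adjusted p = 0.739). HBG averaged 1.44 ± 0.532 CPM, a log2 difference of -0.04 from Model (interval -0.63 to 0.56).

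Of 12 relatives of Adam12 and Fap, 11 were higher and 1 lower in Model than in Control lungs, against 51.5% of all genes higher. None passed, and the median was 1.13-fold. Adam9 had 190 ± 33.8 CPM in Model and 133 ± 2.08 CPM in Control lungs (log2 0.52, adjusted p = 0.158), and Adam15 114 ± 6.60 CPM in Model and 89.5 ± 10.2 CPM in Control (log2 0.35, adjusted p = 0.204). Both are membrane metalloprotease-disintegrins like Adam12, and neither overlapped between these groups, as in 8.71% of all genes tested. Between HBG and Model 2 of the 12 relatives did not overlap, both lower in HBG, against 1.13% of all genes in either direction. Adam15 was among them, with 95.4 ± 9.23 CPM in HBG (log2 -0.26, adjusted p = 0.9999). The closest pair was 106.7 CPM in Model 4 and 106.1 CPM in HBG 2. Over the list 3 relatives were higher and 9 lower in HBG than in Model, and 0 passed (median 0.915-fold).

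Cdh11 (ENSMUSG00000031673), cadherin 11, joins mesenchymal cells to each other. It had 62.0, 82.99, 128 and 67.2 CPM in HBG libraries, 116, 122, 88.4 and 89.8 CPM in Model libraries, and 87.7, 75.6, 74.5 and 81.8 CPM in Control libraries. The Model libraries all lay above the Control libraries, the closest pair being 88.4 CPM in Model 3 and 87.7 CPM in Control 1. In HBG, 3 of 4 libraries lay below every Model library and HBG 3 above all of them. The 2 highest libraries for Cdh11, HBG 3 and Model 2, also had the highest sums of T cell (220 and 216 CPM), haematopoietic (1808 and 1525 CPM) and endothelial markers (4328 and 4196 CPM), and its lowest, HBG 1, had the lowest endothelial (1275 CPM) and alveolar fibroblast sums (1970 CPM). The part of these cells in the Cdh11 values was not tested. Without HBG 3 and Model 2 together, the log2 difference was 0.28 in Model over Control and -0.46 in HBG over Model. These 2 libraries are the highest for Cdh11 itself, so leaving them out lowers their group means whatever the cause. The means were 104 ± 17.5 CPM in Model and 79.9 ± 6.15 CPM in Control, a log2 difference of 0.38 (SE 0.20, interval -0.06 to 0.83, adjusted p = 0.503). HBG averaged 85.0 ± 29.9 CPM, or 70.7 CPM without HBG 3, with a log2 difference of -0.29 from Model (interval -0.74 to 0.15) that was -0.56 without HBG 3 (adjusted p = 0.860). Of 8 other cadherins and catenins, 7 were higher and 1 lower in Model than in Control lungs, and 0 passed (median 1.16-fold). Of all genes 51.5% were higher. In 3 of the 8, Cdh13 among them, every Model library lay above every Control library, as in 4.2% of all genes. Cdh13, or T-cadherin, had 64.8 ± 4.14 CPM in Model and 53.8 ± 3.96 CPM in Control lungs (adjusted p = 0.413). In HBG lungs 1 of the 8 was higher and 7 were lower than in Model lungs, and 0 passed (median 0.939-fold).

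Thy1 (ENSMUSG00000032011) encodes CD90, an anchored glycoprotein of fibroblasts and, in mice, of T cells. It had 17.0, 17.0, 35.5 and 13.2 CPM in HBG libraries, 14.0, 35.0, 9.9997 and 14.9 CPM in Model libraries, and 10.5, 9.86, 13.6 and 17.6 CPM in Control libraries. HBG 3 and Model 2 stood at about the same level, far above the other 10 libraries. The mean was 20.7 ± 10.1 CPM in HBG, 18.5 ± 11.2 CPM in Model and 12.9 ± 3.55 CPM in Control, with log2 differences of 0.52 in Model over Control (interval -0.36 to 1.39, adjusted p = 0.650) and 0.16 in HBG over Model (interval -0.71 to 1.03). The T cell marker sum was 82.0, 81.7, 220 and 50.6 CPM in HBG libraries, 39.4, 216, 41.3 and 46.4 CPM in Model libraries and 56.6, 22.2, 55.5 and 88.4 CPM in Control libraries, with none of the 12 markers at 0 in any library. HBG 3 and Model 2 were thus the 2 highest for both. With these 2 libraries left out, a choice made after the data were seen, the Model over Control log2 difference of Thy1 was -0.01 and that of HBG over Model 0.28. Without Model 2 alone these were 0.01 and 0.67, and without HBG 3 alone HBG over Model was -0.23. Because these 2 libraries are the highest for Thy1 itself, leaving them out lowers their group means whatever the cause. The part of T cells in the Thy1 values was not tested. In Model against Control 12 of 12 T cell markers had a fold change above 1 (median 1.497-fold), against 51.5% of all genes. Only Model 2 had a sum above the Control range, however, and the median sum was 43.8 CPM in Model and 56.1 CPM in Control libraries. None had an unadjusted p under 0.05 in edgeR, against 11.7% of all genes. Of the same 12, 11 were higher and 1 lower in HBG than in Model lungs, and 0 passed (median 1.30-fold).

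Lrrc15 (ENSMUSG00000052316) encodes a leucine-rich repeat membrane protein of TGF-beta-responsive fibroblasts, best known from tumours. Its counts were too low for the filter: 11, 4, 2 and 2 reads in HBG libraries, 23, 5, 15 and 4 in Model libraries and 7, 1, 3 and 2 in Control libraries. That is 0.513, 0.216, 0.0945 and 0.111 CPM in HBG, 1.23, 0.252, 0.679 and 0.203 CPM in Model libraries, and 0.377, 0.05004, 0.117 and 0.0987 CPM in Control. Model 1 and Model 3 were highest, as for Sfrp1, and the groups overlapped. Several of these counts were at or under 3, the limit that a count of 0 allows, which corresponds to 0.117 to 0.166 CPM per library. When the filter was dropped, edgeR gave a log2 fold change of 1.88 in Model over Control (adjusted p = 0.563 over 34326 genes) and -1.29 in HBG over Model (adjusted p = 0.9504). DESeq2 gave 1.90 for Model over Control (adjusted p = 0.305). Single libraries moved the value far: in fits in which Lrrc15 passed the filter, it was 2.62 for Model over Control without Control 1 and 1.58 without Control 2.

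**Figure D3:**
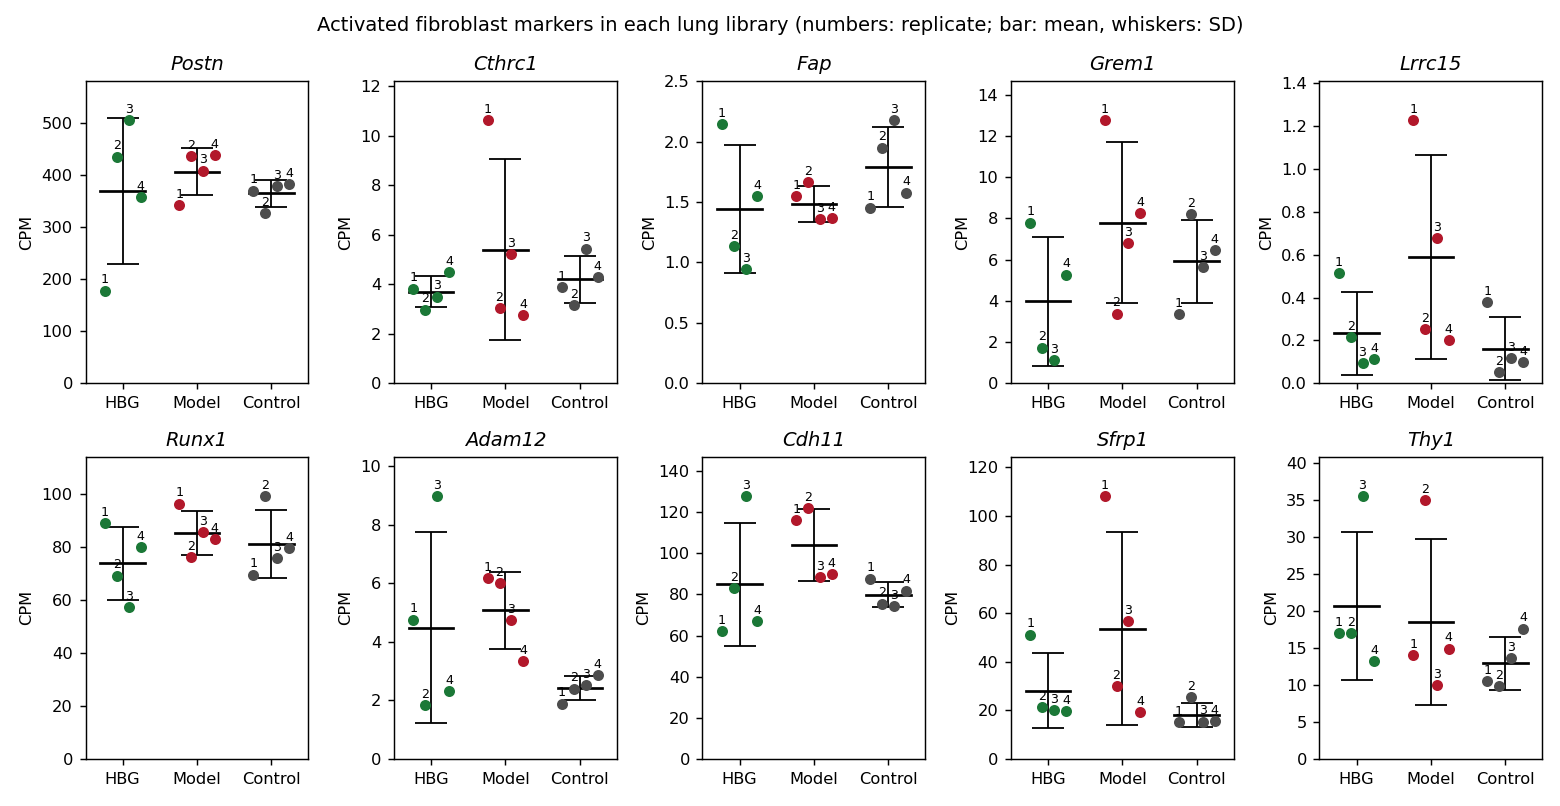
CPM of each gene in every library, numbered by replicate, with the group mean (bar) and SD (whiskers) of 4 libraries in HBG, Model and Control from left to right; each panel has its own scale. Adam12 and Cdh11 show all Model libraries above all Control libraries, and Sfrp1 shows Model 1 at 108 CPM.

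As a reference for the activated state, the 25 TGF-beta ligands, receptors and response genes were read in the same fit. In Model against Control, 21 were higher and 4 lower and 0 passed; 9 had an unadjusted p under 0.05 (11.7% of all genes tested), 7 separated the groups upward (4.2% of all genes), and the median was 1.18-fold. Tgfbr2, the type II receptor, had 375 ± 55.1 CPM in Model and 253 ± 6.99 CPM in Control lungs (log2 0.57, adjusted p = 0.158). In HBG lungs 3 of the 25 were higher and 22 lower than in Model lungs and 0 passed (median 0.861-fold). Of these, 6 had an unadjusted p under 0.05 in edgeR (2.43% of all genes tested) and 0 separated the groups (1.13%). Ltbp2, a latent TGF-beta binding protein of microfibrils, had 119 ± 17.4 CPM in HBG and 197 ± 85.2 CPM in Model (adjusted p = 0.9999). The 14 general fibroblast markers share Col1a1, Col1a2 and Col3a1 with the TGF-beta list. All were above 1-fold in Model over Control (51.5% of all genes, list median 1.20-fold, 0 passed). In HBG over Model all were below 1-fold (49.9% of all genes, list median 0.776-fold, 0 passed). An unadjusted p under 0.05 in edgeR was reached by 5 of the 14 in Model against Control (11.7% of all genes). In HBG against Model 4 of the 14 reached it (2.43%). Nearby lists did not all rise in Model over Control, and 0 passed in each. Myofibroblast and peribronchial fibroblast markers were 4 higher and 6 lower (median 0.925-fold), and pericyte and smooth muscle markers 4 and 6 (0.910-fold). Alveolar fibroblast markers were 5 higher and 7 lower (0.844-fold), and adventitial ones 6 and 4 (1.07-fold). HBG and Model lungs did not overlap for Mfap5, which encodes a protein of microfibrils, as in 1.13% of all genes. Mfap5 had 31.8 ± 4.36 CPM in HBG and 52.1 ± 16.4 CPM in Model (log2 -0.71, adjusted p = 0.9999). In Control lungs it had 35.7 ± 1.88 CPM, also without overlap with Model, as in 8.71% of all genes tested.

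The same few libraries set the extremes of the 10 genes. Model 1 was the highest of the 12 for Cthrc1, Grem1, Lrrc15 and Sfrp1, and HBG 3 was the highest for Postn, Adam12, Cdh11 and Thy1. HBG 3 was also the lowest for Fap, Grem1 and Runx1, so 1 library was at an end for 7 of the 10 genes. The ratio of the highest to the lowest library was 1.73 for Runx1, 2.06 for Cdh11, 2.30 for Fap and 2.84 for Postn. It was 3.60 for Thy1, 3.87 for Cthrc1, 4.88 for Adam12, 7.07 for Sfrp1, 11.2 for Grem1 and 24.5 for the sparse Lrrc15. In 8 of the 9 tested genes the spread between libraries of a group was above the median for genes of like abundance. The biological coefficient of variation in edgeR was 47.0% for Sfrp1, against a median of 15.7% over the 500 genes nearest in abundance, which put it at the 97.2nd percentile. Grem1 (54.5% against 25.7%) was at the 91st and Thy1 (39.7% against 17.8%) at the 93rd percentile, whereas Fap (25.1% against 34.3%) was at the 17.4th.

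**Figure D4:**
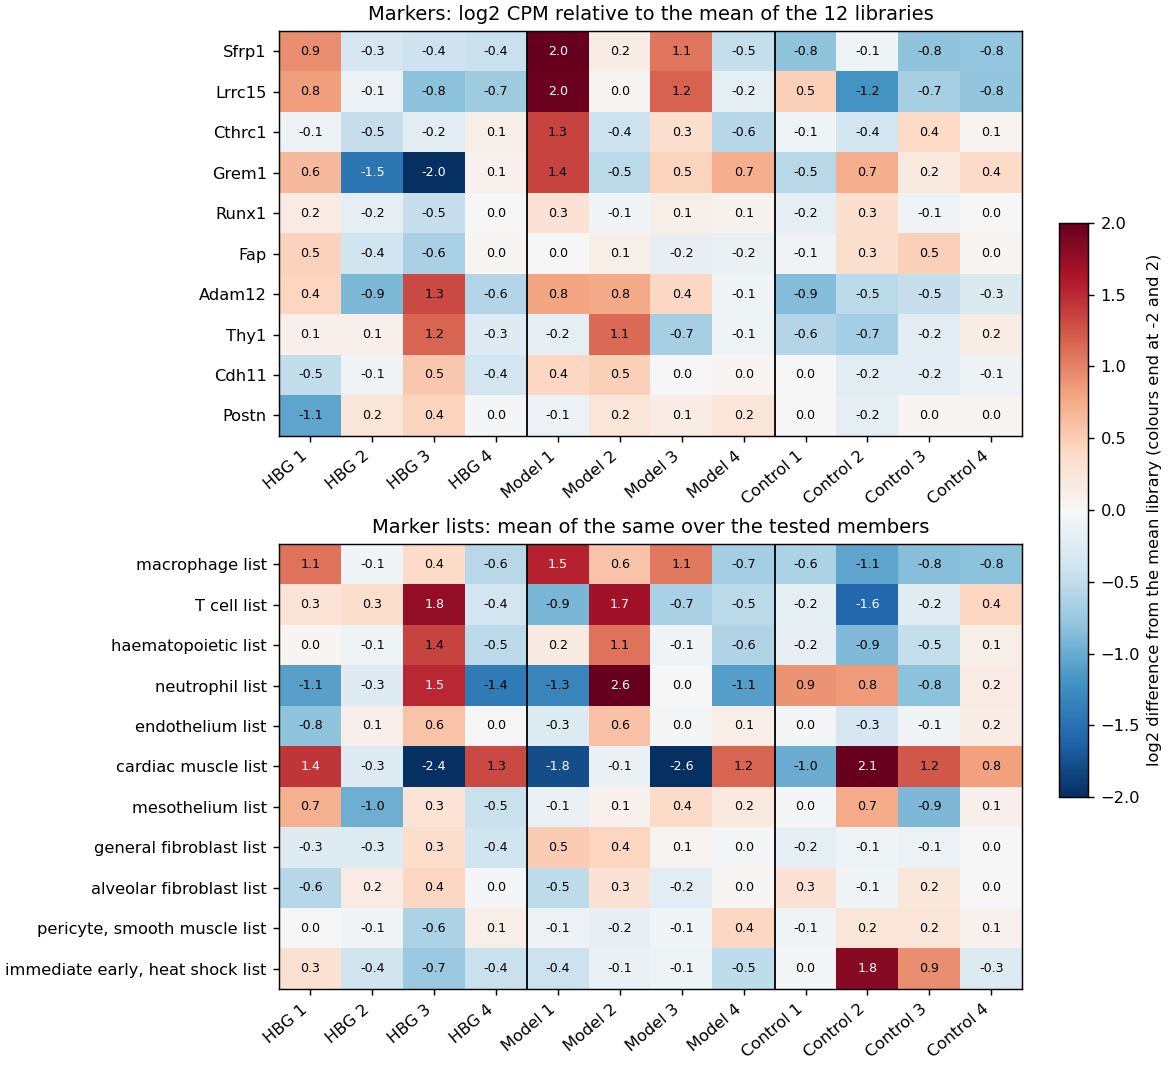
Log2 CPM of each gene (upper panel) and mean log2 CPM of cell type marker lists (lower panel) in each library relative to the mean of the 12 libraries. Sfrp1 and Lrrc15 are highest in Model 1 and Model 3, where the macrophage list is also high, and Thy1 is highest in HBG 3 and Model 2, where the T cell list is.

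The genes whose log2 CPM over the 12 libraries was most like that of each marker differed from marker to marker: none was named for more than 1. For Sfrp1 they were Ildr2 and Sorcs2 (Pearson's r 0.98 each) and Zranb3 (0.97). Thy1 was most like Nfkb1 (0.98) and Tmem229b (0.96), and Grem1 like Gpatch4 (0.98), Runx1 and Osr1 (0.92 each). Postn was followed by Lhfp (0.97), Lrrc58 (0.96) and Fam124a (0.95), and Cdh11 by Calu (0.96), Scn3b (0.95) and Svep1 (0.94). For Lrrc15 the names were Ddhd1 (0.95), Tmem37 (0.94) and Stxbp2 (0.93), for Adam12 Tpp2, Wdr1 and Rab32 (0.94 each), and for Runx1 Podn (0.93), Grem1 (0.92) and Sfn (0.91). Cthrc1 had the weakest set with Fap: Mydgf and Tma7 (0.90 each) and Med8 (0.89) for Cthrc1, and Hspa9 (0.88), Ndufv3 (0.87) and Ndufs8 (0.86) for Fap. Each is the best of over 12116 tested genes of at least 5 CPM or of that number, and a high r over 12 libraries describes likeness only. Without the 2 libraries farthest from the marker's median, r was 0.68 for Cthrc1 and Tma7 and 0.81 for Postn and Lhfp. It was 0.95 for Sfrp1 and Ildr2. Lrrc15 had only 1 to 23 reads a library, so its values carry much counting error.

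**Figure D5:**
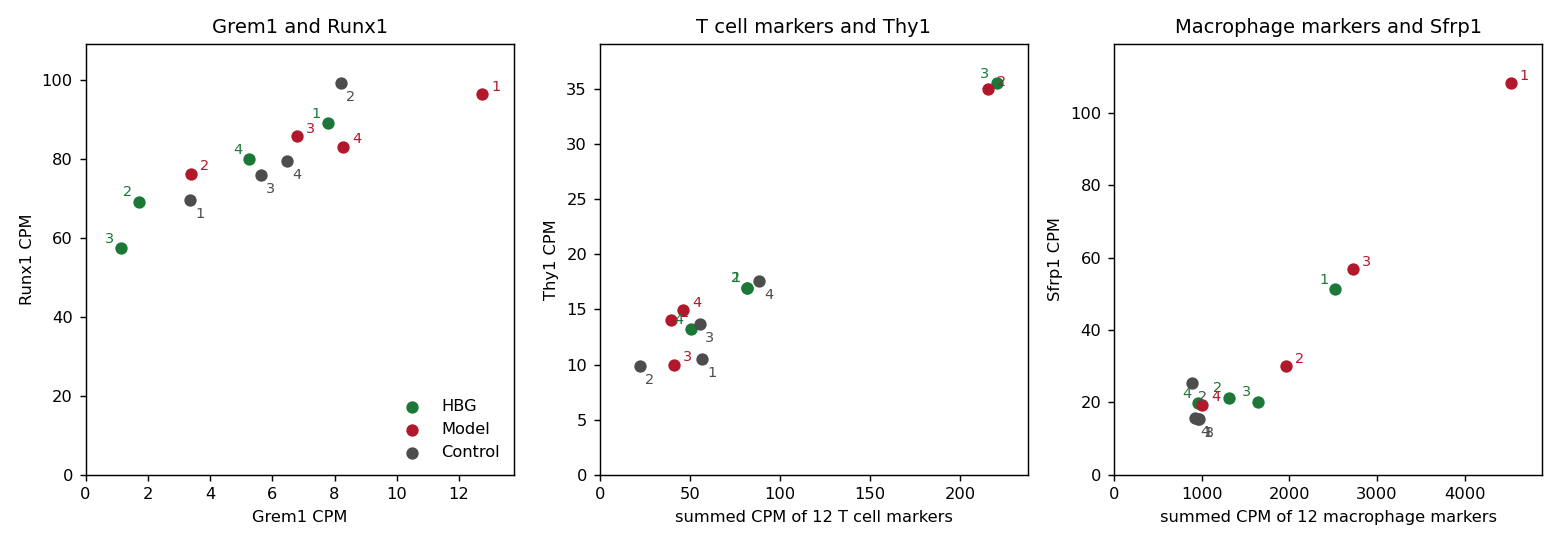
Each point is a library, numbered by replicate and coloured by group: Runx1 against Grem1 in CPM (left), Thy1 against the summed CPM of 12 T cell markers (middle) and Sfrp1 against the summed CPM of 12 macrophage markers (right). HBG 3 and Model 2 lie apart at 220 and 216 CPM of T cell markers, and Model 1, Model 3 and HBG 1 lead the right panel.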

How the data were processed

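Lung polyadenylated RNA was sequenced in 12 libraries, 4 each in the HBG, Model and Control groups, as stranded TruSeq libraries with paired reads of 150 bases, per the labels' protocols. The authors deposited estimated counts per gene in a table of all libraries. The unit was read from the values, of which 10.0% to 15.1% are not whole in a library. Per the submitters' processing notes, the tools were cutadapt, DESeq2 1.34.0, fastp, FastQC 0.11.9, featureCounts 2.0.1, HISAT2, HTSeq, STAR 2.7.9a and Trimmomatic 0.39 and the builds mm10 and GRCm39, with no role or order. The counting tool and annotation are not given in the sources used here; reads of overlapping genes may be divided in ways that move a count. Deposited group means were not used, and the deposited gene length was the divisor for TPM.

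Counts were rounded. edgeR 4.0.16 (R 4.3.3, limma 3.58.1, version 1.17.8 of data.table) with TMM factors and filterByExpr tested 17827 genes in a quasi-likelihood fit to all 12 libraries with group as the only term; 22654 genes were at 0 everywhere. P-values are two-sided and adjusted by Benjamini-Hochberg over all genes tested, with a threshold of 0.05. CPM uses TMM factors, and log2 CPM a prior count of 2. Likeness was ranked over tested genes of at least 5 CPM, 3 per marker, leaving out predicted and clone names; 1 gene like Thy1 is not reported here. From other lists, the text names genes of smallest p in Model against Control or HBG against Model and defining markers. The 10 genes and all lists were chosen with earlier results of these data known. Count intervals and floors cover counting error only, since reads carry no molecular identifiers.

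Within each group every pair of libraries differed by more than sampling noise (chi-square over its degrees of freedom at least 16.4). Alternatives were RLE factors, no filter, only the 2 groups compared, a replicate block, DESeq2 1.42.0, limma-voom using sample quality weights, and leaving out each library. Leaving out HBG 3 and Model 2 together was chosen after seeing the data. GC content, from GENCODE M21 transcripts, was known for 17488 of the tested genes (98.1%). Among genes within 1 percentage point of GC of each of the 9 tested markers, the median log2 fold change of Model over Control lay between -0.02 and 0.03.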

Additional observations from a re-analysis of the deposited data

Results flagged for a closer look

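In 3 of the 30 sets of 4 libraries (10 genes in 3 groups), 1 library stood so far from the other 3 that the gap, as a share of the whole range, exceeded the 95% critical value of Dixon's test; chance flags about 1 in 20 such sets.

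Sfrp1 had 51.2 CPM in HBG 1, against 19.7 to 21.3 CPM in the other 3 HBG libraries, and the HBG mean without it was 20.4 CPM. HBG 1 also had the highest macrophage marker sum of its group, 2525 CPM against 961 to 1644 CPM. Sfrp1 had 25.3 CPM in Control 2, against 15.3 to 15.7 CPM in the other 3 Control libraries, and the Control mean without it was 15.5 CPM. There the macrophage sum was the lowest of the group, at 897 CPM, while the cardiac muscle sum (5618 CPM) and the sum of immediate early and heat shock genes (5976 CPM) were the highest of all 12 libraries. Thy1 had 35.5 CPM in HBG 3, against 13.2 to 17.0 CPM in the other HBG libraries, beside a T cell marker sum of 220 CPM against 50.6 to 82.0 CPM. The part of these other cells in the 3 values was not tested.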

How the results depend on the processing

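In Model against Control, edgeR called 62 genes. DESeq2 called 418, limma-voom with sample quality weights 1079 and the fit with the replicate block 25; leaving out each library in turn gave 23 (without Control 3) to 67 (without Model 4). In HBG against Control it called 27, against 198 with DESeq2, 101 with limma-voom, 17 with the replicate block, 45 with HBG 3 and Model 2 left out together and 16 to 25 with each library left out. In HBG against Model it called 0, and DESeq2 3. Of the 10 markers edgeR called 0 under every setting run; in Model against Control DESeq2 called 1 (Sfrp1, log2 1.58) and limma-voom 2 (Sfrp1, 1.79, and Adam12, 1.07). With the replicate block no marker's call changed; deviations of same-numbered libraries correlated between -0.36 and 0.48, so the numbers were not taken to pair libraries.

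Of 405 alternative values of the 27 log2 fold changes of the 9 tested markers, 379 kept direction and side of the threshold, 3 (those named above) passed and 23 changed sign. None of the 23 was past the threshold. In Model against Control the sign changed for Thy1 (-0.0409 with limma-voom, -0.0084 with HBG 3 and Model 2 left out), and values with each library left out ran from -0.20 to 0.58 for Cthrc1 and from -0.00127 to 0.18 for Runx1. In HBG against Model they ran from -0.33 to 0.0907 for Postn, -0.76 to 0.0129 for Cthrc1, -0.30 to 0.12 for Fap, -0.76 to 0.0799 for Adam12 and -0.23 to 0.67 for Thy1, and Fap was at 0.19 without HBG 3 and Model 2. In HBG against Control, Postn was at -0.0198 with limma-voom, -0.0577 with the replicate block and -0.18 without HBG 3 and Model 2, and Cdh11 at -0.10 and -0.18 with limma-voom and without those 2; left out singly, libraries gave -0.17 to 0.25 for Postn and -0.18 to 0.21 for Cdh11. The cause was not tested. With 4 libraries a group, depth limits Lrrc15 most (1 to 23 reads a library) and then Fap (20 to 56).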
